A study of Mus musculus with 4 samples.

Results

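The genes described here are 39 genes that defend cells against reactive oxygen species or bind metal: superoxide dismutases, catalase, peroxidases, peroxiredoxins, the thioredoxin and glutathione systems, the Nrf2 regulator with its partner Keap1, heme oxygenases and metallothioneins. They were taken by name from the deposited table of FPKM per gene, all 39 were present among its 23439 gene symbols, and all 39 had a mean of at least 1 FPKM over the libraries and so were among the 10513 genes tested. FPKM counts fragments relative to transcript length and library size, so levels of different genes can be compared per length. Total RNA was sequenced from the hearts of mice aged 12 weeks, with 2 libraries per group and, per the labels, RNA taken from each heart. Control hearts carried alphaMHCMerCreMer+/-, a Cre recombinase driven in cardiomyocytes by the alpha myosin heavy chain promoter, and Tbx20_OE hearts carried alphaMHCMerCreMer+/-;CAGCATTbx20, the same Cre with a transgene for the heart T-box factor Tbx20. Overexpression was induced when the mice were 8 weeks old, and the hearts were collected 4 weeks later. How the control hearts were treated at that time is not given in the sources used here. In such bulk heart RNA, fewer cells of a type and less RNA per cell cannot be told apart.

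Superoxide, a by-product of mitochondrial respiration, is turned into hydrogen peroxide by superoxide dismutases. The peroxide is removed by catalase, by glutathione peroxidases at the cost of glutathione, and by peroxiredoxins, mostly at the cost of thioredoxin. Glutathione and thioredoxin are then reduced again with NADPH. The transcription factor Nrf2, encoded by Nfe2l2 and held in check by Keap1, activates many of these genes through the antioxidant response element, and metallothioneins are small cysteine-rich proteins induced by zinc through the metal response element. Heart muscle is rich in mitochondria and keeps many of these genes at high levels.

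The promoters of both metallothioneins are shown because Mt2 had the widest spread between hearts of all 39 genes and Mt1 is its neighbour on chromosome 8. The sequences come from RefSeq on GRCm38.p6 (mm10), cover the 250 bases before the annotated start site, and read 5′ to 3′ on the + strand. Capitals mark the core of the metal response element, TGCNCNC, in either orientation.
Mt1, chr8:94178839-94179088: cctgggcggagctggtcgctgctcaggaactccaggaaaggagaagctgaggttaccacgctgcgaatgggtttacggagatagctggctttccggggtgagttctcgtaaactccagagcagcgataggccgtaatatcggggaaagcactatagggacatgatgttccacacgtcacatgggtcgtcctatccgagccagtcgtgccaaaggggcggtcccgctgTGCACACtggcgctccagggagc
Mt2, chr8:94172368-94172617: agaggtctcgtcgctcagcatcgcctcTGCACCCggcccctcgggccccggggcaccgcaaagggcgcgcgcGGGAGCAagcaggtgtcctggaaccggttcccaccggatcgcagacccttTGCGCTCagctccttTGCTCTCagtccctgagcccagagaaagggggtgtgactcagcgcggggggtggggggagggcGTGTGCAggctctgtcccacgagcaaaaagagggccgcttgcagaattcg
In the window from 250 bases before to 50 bases after the start site, both strands searched, the core was found 6 times for Mt2 and 3 times for Mt1. Matches that began 3 and 21 bases after the start site of Mt1 and 5 after that of Mt2 are not in the bases shown. The counts depend on the annotated start site and hold for this window only. At least 3 matches were found in 6.95% of the 27025 promoters searched, 1 per gene symbol, and at least 6 in 0.207%. Of the 32 members with a promoter in the table, 15 (46.9%) held at least 1 match, against 50.4% of all promoters.

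The core of the antioxidant response element, TGACNNNGC, was searched in the same way because it is the sequence through which Nrf2 acts. It was found in 7 of the 32 member promoters (21.9%), against 12.5% of all promoters. In Gclm it overlapped a metal response element core. Before the start site it lay in 6 members, shown with 10 bases on each side on the strand that reads TGACNNNGC, with the core in capitals.
Prdx1, chr4:116685456-116685484, - strand: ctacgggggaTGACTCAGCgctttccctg
Mt2, chr8:94172529-94172557, + strand: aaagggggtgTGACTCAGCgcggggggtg
Nfe2l2, chr2:75704885-75704913, - strand: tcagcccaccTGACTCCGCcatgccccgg
Gclm, chr3:122245413-122245441, - strand: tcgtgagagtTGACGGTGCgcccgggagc
Mgst1, chr6:138140461-138140489, - strand: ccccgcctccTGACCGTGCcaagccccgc
Sod1, chr16:90220696-90220724, - strand: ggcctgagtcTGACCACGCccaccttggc
Prdx1 and Mt2 had the same core letters. In the seventh member, Srxn1, the match began 29 bases after the start site. A match describes these letters and is not a measured binding site.

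Tbx20 itself was at 6.99 and 4.58 FPKM in control 1 and 2 against 11.0 and 16.4 FPKM in Tbx20_OE 1 and 2 (limma adjusted p = 0.848). Control 2 stood apart from the other 3 libraries, with a Pearson correlation on the log2 scale of 0.927 to 0.957 with them against 0.981 to 0.982 among the others. It was also the library with atrial tissue markers: 6 of 6 atrial muscle markers were highest there, and their summed level was 143, 3756, 252 and 141 FPKM in control 1, control 2, Tbx20_OE 1 and Tbx20_OE 2. Of these markers, Mybphl and Sln were listed at 0 in Tbx20_OE 2. The summed level of 5 ventricular markers, Myl2, Myl3, Myh6, Myh7 and Tnni3, was 29243, 32375, 30643 and 25162 FPKM in the same order. That of 4 fat markers was 0.912, 37.2, 2.09 and 2.20 FPKM, with 2 of the 4 highest in control 2. All 4 platelet markers, all 4 mesothelium markers and 5 of 7 red cell markers were highest in control 2 as well, and the red cell sums were 118, 3016, 779 and 206 FPKM, with Slc4a1 listed at 0 in control 1. The 4 smooth muscle markers, Acta2, Tagln, Myh11 and Cnn1, were instead higher in both Tbx20_OE hearts than in both controls, with sums of 50.3, 65.8, 106 and 73.3 FPKM in the same order of hearts and a limma adjusted p of 0.848 for Tagln and Myh11. Among 5 endothelium markers Pecam1 and Cdh5 were also higher in both Tbx20_OE hearts than in both controls, and among 5 fibroblast markers Dcn was. The groups of the other endothelium and fibroblast markers overlapped, and 28.1% of all tested genes were higher in this way. The part of smooth muscle, endothelial or fibroblast cells in the members separated upward was not tested. Where a log2 fold change of a member is given, its value without control 2 stands beside it.

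No member passed the limma test between the groups on log2(FPKM + 1), with p-values adjusted by the Benjamini-Hochberg method over all 10513 genes, where 2 genes (0.0190%) passed at 0.05. The adjusted p of the members lay between 0.848 and 0.990, and 0 of 39 had an unadjusted p under 0.05, against 1.52% of all genes. Glrx had the smallest unadjusted p, at 0.0714. For 16 of the 39 members (41.0%) both Tbx20_OE hearts lay above both control hearts, against 28.1% of all tested genes, and for Mgst3 alone both lay below, which is 2.56% of the members against 4.77% of all genes. The median log2 fold change was 0.17 over the members and 0.15 over all tested genes, and 28 of the 39 were positive, against 71.1% of all genes. The median and the positive share of the members were thus close to those of the whole table.

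With each library centred on its median, which took the median of all genes from 0.15 to -0.01, 7 members were separated upward and 5 downward, against 10.3% and 14.1% of all genes, and the median of the members was 0.0089. The 5 were Mgst3, Prdx2, Txnip, Keap1 and Mt1. Sod2, Prdx6, Glrx, Msra, Gsto1, Nfe2l2 and Hmox2 stayed above control in both Tbx20_OE hearts under all 4 other scalings tried, including the authors' quantile-normalized values. Mgst3 stayed below it under the same 4. How many of all tested genes stayed separated under all 4 together was not counted. Under the single scalings the upward share was 10.3% to 12.6% of all genes. Without control 2, no member passed, where 0.209% of all genes did, and the median was 0.12, against 0.079 over all genes. In that case 23 members lay with both Tbx20_OE hearts above control 1 and 3 with both below, against 45.2% and 16.8% of all genes. Without control 1, where control 2 is the only control heart and is assumed to vary like the Tbx20_OE hearts, Cat, Prdx3, Prdx6 and Txnrd1 passed, in a fit that called 13.6% of all genes. Both Tbx20_OE hearts then lay above control 2 for 23 members and below it for 9, against 59.8% and 27.0% of all genes.

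**Figure D1:**
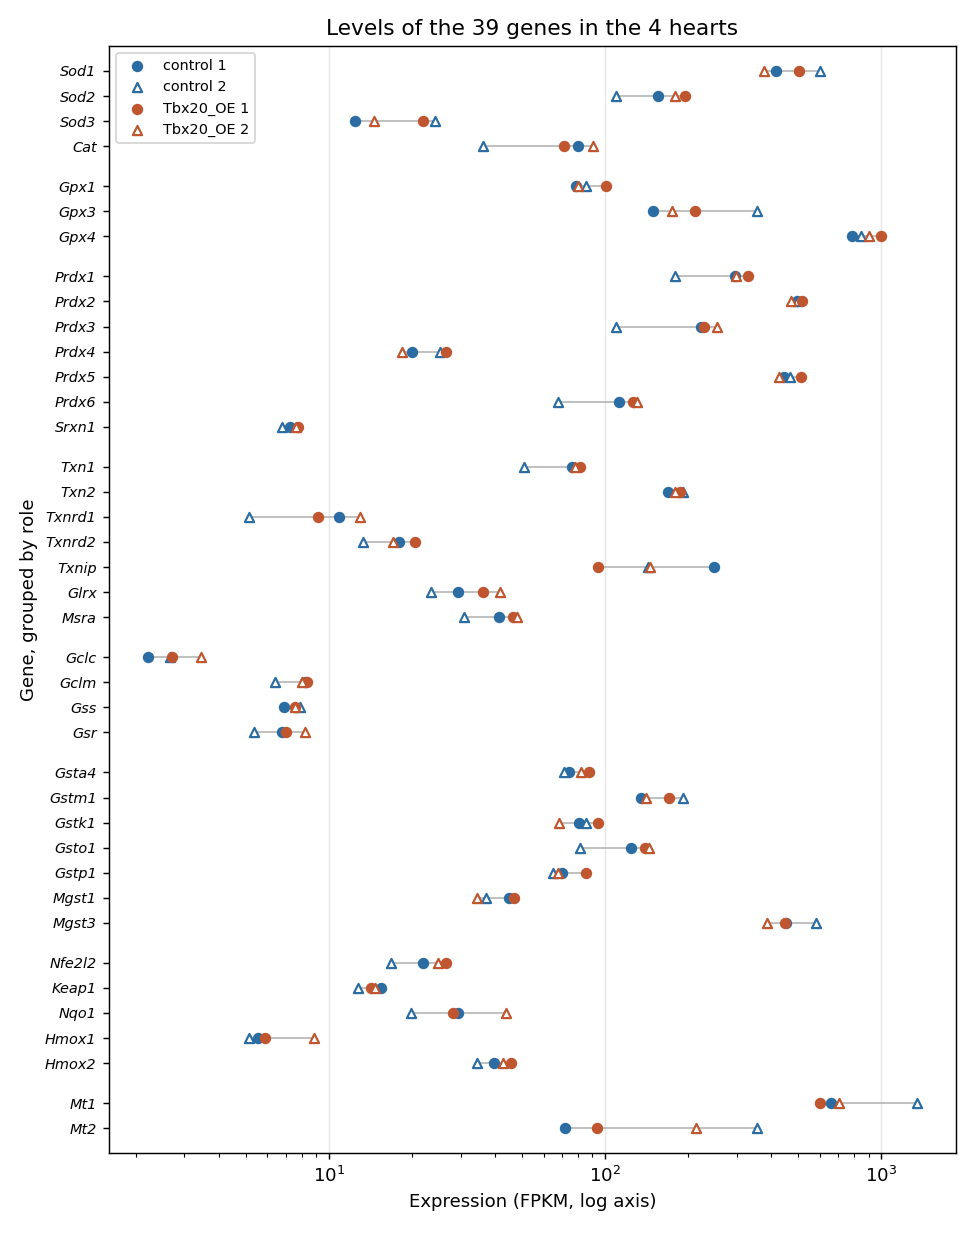
Level of each of the 39 genes in the 4 hearts, in FPKM on a log axis, grouped by role from dismutases at the top to metallothioneins at the bottom. Circles are replicate 1 and open triangles replicate 2, blue for control and orange for Tbx20_OE, and the grey line spans the lowest to the highest heart. The open blue triangle of control 2 is the lowest point for 21 genes and the highest for 9.

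Control 2 was the lowest of the 4 hearts for 21 of the 39 members (53.8%) and the highest for 9 (23.1%), against 54.3% and 25.5% of all tested genes. The median range between the highest and lowest heart was 0.58 on the log2 scale over the members and 0.27 when control 2 was left out. The same values over all genes were 0.54 and 0.27. Gpx4 at a mean of 884 FPKM over the 4 hearts and Mt1 at 827 FPKM were the most abundant members, followed by Prdx2, Sod1, Mgst3 and Prdx5 in this order. Gclc was the lowest at 2.76 FPKM. Summed over all 39, the level reached 5716 and 6792 FPKM in control 1 and 2 against 6239 and 5950.0 FPKM in Tbx20_OE 1 and 2, between 1.21% and 1.39% of the FPKM of all tested genes in a heart.

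Among the dismutases and catalase, the mitochondrial manganese enzyme was the only gene with separated groups. Sod2, on chromosome 17 from 13007839 to 13018119 of mm10, was at 156 and 109.9 FPKM in control 1 and 2 against 195 and 179.7 FPKM in Tbx20_OE 1 and 2. Both Tbx20_OE hearts lay above both controls (log2 fold change 0.51, standard error 0.28, limma adjusted p = 0.848), and the log2 fold change was 0.26 without control 2. Sod1, the cytosolic copper and zinc enzyme and the most abundant dismutase, was at 417 and 599 FPKM in control 1 and 2 against 505 and 375 FPKM in Tbx20_OE 1 and 2. Its groups overlapped, with the highest value in control 2 and the lowest in Tbx20_OE 2 (log2 -0.20, standard error 0.32), and the sign turned to 0.06 without control 2. Sod3, the secreted enzyme of the matrix, was at 12.5 and 24.3 FPKM in control 1 and 2 against 21.9 and 14.6 FPKM in Tbx20_OE 1 and 2, with control 1 lowest and control 2 highest. Cat, the peroxisomal catalase, was at 80.1 and 36.2 FPKM in control 1 and 2 against 70.8 and 90.8 FPKM in Tbx20_OE 1 and 2. Control 1 lay between the Tbx20_OE hearts and control 2 stood below all 3 other hearts (log2 0.56, standard error 0.42), so that the log2 fold change of Cat was 0.00 without control 2 and 1.13 without control 1 (limma adjusted p = 0.0323).

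The glutathione peroxidases, which use selenocysteine and glutathione to remove peroxides, held the most abundant member. Gpx4, the enzyme that reduces lipid peroxides in membranes, was at 782 and 848 FPKM in control 1 and 2 against 1001 and 904 FPKM in Tbx20_OE 1 and 2. Its Tbx20_OE hearts were both higher (log2 0.22, standard error 0.26, 1.17-fold), at 0.28 without control 2, and the separation ended with median centring. Gpx1, the cytosolic enzyme, was at 78.8 and 85.4 FPKM in the controls against 101 and 80.1 FPKM in the Tbx20_OE hearts, and Tbx20_OE 1 alone exceeded the controls. Gpx3, the plasma enzyme, was at 149 and 355 FPKM in control 1 and 2 against 211 and 174 FPKM in Tbx20_OE 1 and 2. Control 2 was the highest and control 1 the lowest, so the negative fold change (log2 -0.26, standard error 0.45) turned to 0.36 without control 2.

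Peroxiredoxins, a family of mostly thioredoxin-dependent peroxidases, fell into a pair of patterns. Prdx3, the mitochondrial member on chromosome 19 from 60864066 to 60874538, was at 223 and 109 FPKM in control 1 and 2 against 227 and 255 FPKM in Tbx20_OE 1 and 2. Both Tbx20_OE hearts lay above the controls (log2 0.62, standard error 0.39, limma adjusted p = 0.848) and control 1 lay close to Tbx20_OE 1, while control 2 was far below the other 3 hearts. The separation of Prdx3, and likewise that of Prdx1, ended under each of the 4 other scalings. Prdx6, which also repairs oxidized phospholipids, was at 113 and 67.7 FPKM in control 1 and 2 against 126 and 131 FPKM in Tbx20_OE 1 and 2 (log2 0.55, standard error 0.32). Prdx1, an abundant cytosolic member, was at 295 and 179 FPKM in control 1 and 2 against 331 and 299 FPKM in Tbx20_OE 1 and 2 (log2 0.45, standard error 0.33), and control 1 and Tbx20_OE 2 were nearly equal. Without control 2 the log2 fold changes of Prdx3, Prdx6 and Prdx1 were 0.11, 0.19 and 0.09. Without control 1 they were 1.13, 0.91 and 0.81, and the first pair passed (limma adjusted p = 0.0356 for Prdx3 and 0.0451 for Prdx6).

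Prdx2, the most abundant peroxiredoxin, was at 497 and 497 FPKM in control 1 and 2 against 517 and 469.7 FPKM in Tbx20_OE 1 and 2, so that both controls lay within the Tbx20_OE range. Prdx5 lay between 426 and 512 FPKM and Prdx4, the member of the endoplasmic reticulum, between 18.4 and 26.6 FPKM, with the lowest and the highest value both in Tbx20_OE hearts. Srxn1, sulfiredoxin, which restores over-oxidized peroxiredoxins, was at 7.23 and 6.77 FPKM in the controls against 7.76 and 7.62 FPKM in the Tbx20_OE hearts. Its groups did not overlap, at a 1.09-fold difference that ended under each of the 4 other scalings. Summed over the 6 peroxiredoxins, the level was lowest in control 2 at 1345 FPKM, against 1594 for control 1, 1739 for Tbx20_OE 1 and 1599 for Tbx20_OE 2.

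**Figure D2:**
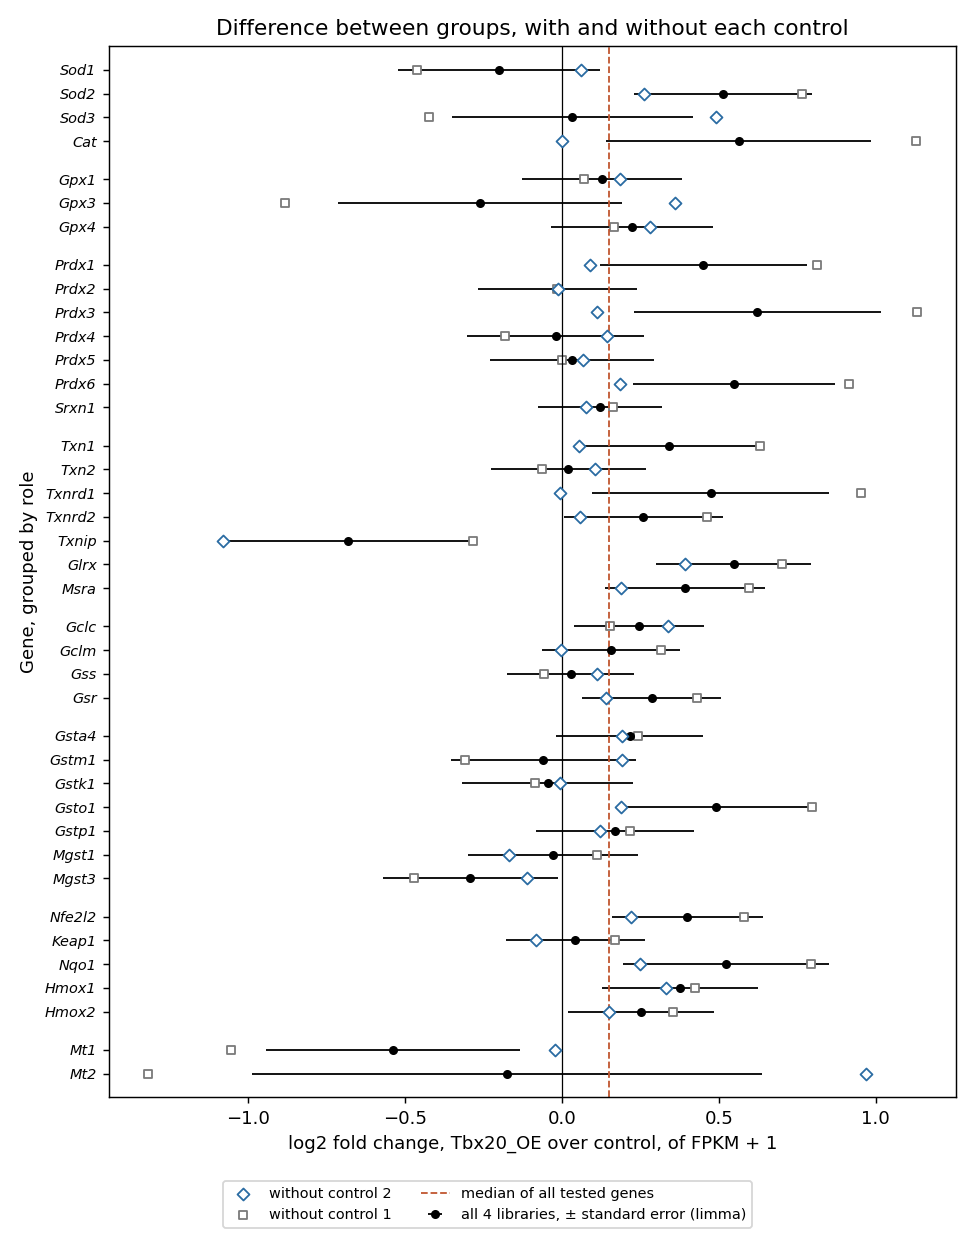
Difference between Tbx20_OE and control for each of the 39 genes, as the log2 fold change of FPKM + 1. Filled circles with bars are the limma estimate from all 4 hearts ± its standard error, open diamonds leave out control 2, open squares leave out control 1, and the dashed line is the median of all tested genes at 0.15. For Cat, Prdx3 and Txnrd1 the squares lie near 1 and the diamonds near 0, and for Mt2 they lie on opposite sides of 0.

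In the thioredoxin system and its partners, Glrx, Msra and Txn1 were separated upward. Glrx, glutaredoxin, which removes glutathione from oxidized protein cysteines, lies on chromosome 13 from 75839886 to 75850151 of mm10 and was at 29.3 and 23.5 FPKM in control 1 and 2 against 36.1 and 41.8 FPKM in Tbx20_OE 1 and 2. Both Tbx20_OE hearts lay above both controls, at 26.4 ± 4.11 FPKM for the controls against 38.9 ± 4.02 FPKM for Tbx20_OE (mean ± SD, n = 2) (log2 fold change 0.55, standard error 0.25, limma adjusted p = 0.848), and the log2 fold change was 0.39 without control 2. Msra, which repairs oxidized methionine, was at 41.2 and 30.8 FPKM in control 1 and 2 against 46.3 and 47.9 FPKM in Tbx20_OE 1 and 2. It was separated in the same direction (log2 0.39, standard error 0.25), at 0.19 without control 2. Txn1, cytosolic thioredoxin, was at 76.3 and 50.9 FPKM in control 1 and 2 against 81.1 and 77.6 FPKM in Tbx20_OE 1 and 2 (log2 0.34, standard error 0.29), where control 1 was close to Tbx20_OE 2. The value was 0.056 without control 2, and the separation ended with median centring and with GC correction. Txnrd1, the reductase that recharges it, was at 10.9 and 5.13 FPKM in control 1 and 2 against 9.12 and 12.9 FPKM in Tbx20_OE 1 and 2 (log2 0.47, standard error 0.38). Control 1 lay between the Tbx20_OE hearts, the value was -0.0046 without control 2, and without control 1 it was 0.95 (limma adjusted p = 0.0461). The mitochondrial pair Txn2 and Txnrd2 overlapped between groups, with Txn2 at 169.7 and 191 FPKM in the controls against 187 and 179 FPKM in the Tbx20_OE hearts and Txnrd2 at 17.9 and 13.3 FPKM in the controls against 20.5 and 17.1 FPKM in the Tbx20_OE hearts.

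Txnip, which binds and inhibits thioredoxin and limits glucose uptake, had the largest negative fold change of the members. On chromosome 3 from 96557957 to 96561857 of mm10, it was at 249 and 143 FPKM in control 1 and 2 against 94.6 and 145 FPKM in Tbx20_OE 1 and 2. Tbx20_OE 1 was the lowest and control 1 the highest, while control 2 and Tbx20_OE 2 were nearly equal, so the groups overlapped (log2 fold change -0.68, standard error 0.39, limma adjusted p = 0.848). The group levels were 196 ± 75.0 FPKM for the controls against 119.8 ± 35.8 FPKM for Tbx20_OE (mean ± SD, n = 2). Without control 2 the log2 fold change was -1.08 (limma adjusted p = 0.781), and with median centring or GC correction both Tbx20_OE hearts lay below both controls. In the authors' deposited table, from cuffdiff and with FPKM on a scale of its own, Txnip was at 319 FPKM for the controls against 172 FPKM for Tbx20_OE (p = 0.0226, q = 0.999). It was the 1 member with a cuffdiff p under 0.05 in the authors' deposited table, where 2.58% of 12850 genes had one, and the 1 member among the 150 genes that table selects as lower (1.17% of 12850). No member was among the 65 genes selected there as higher. That table lists 22 of the 39 as higher in Tbx20_OE and 17 as lower, each with a q of 0.999.

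The genes that make and recycle glutathione had mean levels of 2.76 to 7.73 FPKM, and 2 of 4 were separated upward, against 28.1% of all tested genes. Gclc, the catalytic subunit of the rate-limiting synthesis enzyme, was at 2.21 and 2.66 FPKM in control 1 and 2 against 2.71 and 3.46 FPKM in Tbx20_OE 1 and 2 (log2 0.25, standard error 0.21). Both Tbx20_OE hearts were higher, although Tbx20_OE 1 exceeded control 2 only slightly. Gsr, which reduces oxidized glutathione with NADPH, was at 6.79 and 5.37 FPKM in control 1 and 2 against 6.998 and 8.22 FPKM in Tbx20_OE 1 and 2 (log2 0.29, standard error 0.22) and was separated in the same direction. Gclm, the modifier subunit, was at 8.19 and 6.37 FPKM in the controls against 8.36 and 7.99 FPKM in the Tbx20_OE hearts, and Gss, glutathione synthetase, at 6.91 and 7.88 FPKM in the controls against 7.55 and 7.54 FPKM in the Tbx20_OE hearts. Both overlapped between groups. Without control 2 the log2 fold change was 0.34 for Gclc and 0.14 for Gsr. The separation of both ended under each of the 4 other scalings. The ratio of Gclm to Gclc was 3.70 and 2.40 in control and 3.09 and 2.31 in Tbx20_OE, so that the groups overlapped in it too.

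Glutathione transferases, which join glutathione to reactive compounds, included 2 genes separated upward and 1 downward among 7, against 28.1% and 4.77% of all tested genes. Gsto1, an omega-class enzyme, was at 124 and 81.2 FPKM in control 1 and 2 against 139 and 144 FPKM in Tbx20_OE 1 and 2. It was separated upward (log2 0.49, standard error 0.30), with a log2 fold change of 0.19 without control 2. Mgst3, a microsomal enzyme and the most abundant transferase, was at 451 and 579 FPKM in control 1 and 2 against 449 and 387 FPKM in Tbx20_OE 1 and 2. It was the 1 member with both Tbx20_OE hearts below both controls (log2 -0.29, standard error 0.28, 1.22-fold), but control 1 and Tbx20_OE 1 were nearly equal and the value was -0.11 without control 2. Gsta4, which conjugates the lipid peroxidation product hydroxynonenal, was at 74.0 and 71.3 FPKM in the controls against 87.7 and 81.6 FPKM in the Tbx20_OE hearts, separated upward by 1.16-fold. The separation of Gsta4 ended with median centring, quantile normalization and GC correction, and stayed with the authors' quantile-normalized values. Gstm1 at 135 and 192 FPKM in the controls against 170.5 and 140.5 FPKM in the Tbx20_OE hearts was highest in control 2. Gstk1, Gstp1 and Mgst1 overlapped between groups, at 68.4 to 94.6, 65.1 to 85.1 and 34.3 to 46.8 FPKM over the 4 hearts. Gstm1 and Gstp1 have near-identical relatives, so their values are uncertain where reads were shared.

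In the Nrf2 axis, the regulator itself was separated and its inhibitor was not. Nfe2l2, on chromosome 2 from 75675519 to 75704641 of mm10, was at 21.9 and 16.8 FPKM in control 1 and 2 against 26.6 and 24.8 FPKM in Tbx20_OE 1 and 2, or 19.4 ± 3.55 FPKM for the controls against 25.7 ± 1.24 FPKM for Tbx20_OE (mean ± SD, n = 2). Both Tbx20_OE hearts were higher (log2 fold change 0.40, standard error 0.24, limma adjusted p = 0.848), and the value was 0.22 without control 2. Keap1, the adaptor that marks Nrf2 for degradation, was at 15.4 and 12.8 FPKM in control 1 and 2 against 14.3 and 14.7 FPKM in Tbx20_OE 1 and 2, with both Tbx20_OE hearts between the controls. After median centring or quantile normalization both Tbx20_OE values of Keap1 lay below both controls. The ratio of Nfe2l2 to Keap1 was 1.42 and 1.32 in control and 1.86 and 1.68 in Tbx20_OE, higher in both Tbx20_OE hearts. With 2 hearts against 2, a two-sided exact permutation test of such a single value cannot go below p = 0.333. Nqo1, a quinone reductase and textbook Nrf2 target, was at 29.4 and 19.9 FPKM in control 1 and 2 against 28.3 and 43.8 FPKM in Tbx20_OE 1 and 2 (log2 0.52, standard error 0.33), where Tbx20_OE 2 was high and control 1 exceeded Tbx20_OE 1. The value of Nqo1 was 0.25 without control 2 and 0.22 without Tbx20_OE 2. Hmox1, the inducible heme oxygenase, was at 5.54 and 5.14 FPKM in control 1 and 2 against 5.90 and 8.83 FPKM in Tbx20_OE 1 and 2 (log2 0.38, standard error 0.25), also highest in Tbx20_OE 2. Its groups did not overlap, with a value of 0.33 without control 2, and the separation ended under each of the 4 other scalings. Hmox2, the constitutive enzyme, was at 39.7 and 34.4 FPKM in the controls against 45.7 and 42.8 FPKM in the Tbx20_OE hearts, separated upward by 1.19-fold.

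Of the 6 members with the antioxidant response element core before the start site, Prdx1 and Nfe2l2 were separated upward. This was 2 of 6, against 41.0% of the members and 28.1% of all tested genes. The groups of Sod1, Gclm, Mgst1 and Mt2 overlapped. Srxn1, with its match after the start site, was also separated upward. Nfe2l2 stayed separated under the 4 other scalings, and Prdx1 and Srxn1 under none of them.

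**Figure D3:**
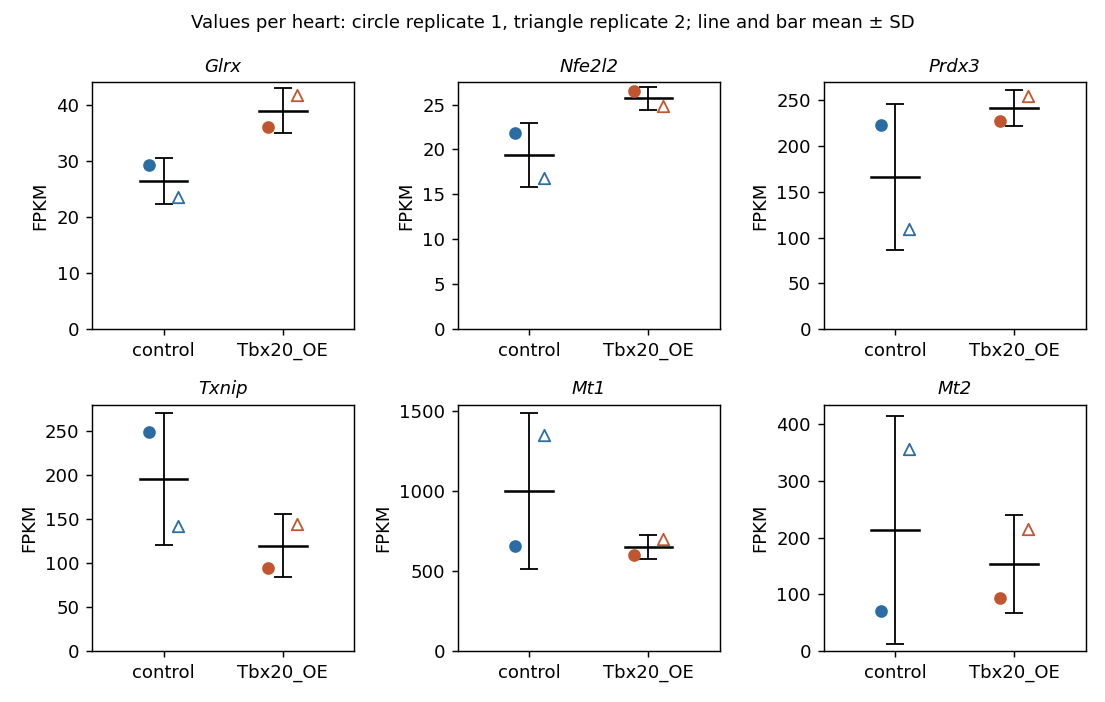
FPKM per heart for Glrx, Nfe2l2, Prdx3, Txnip, Mt1 and Mt2, with filled circles for replicate 1, open triangles for replicate 2, blue for control and orange for Tbx20_OE. Black lines and bars are the mean ± SD of 2 hearts, and each axis starts at 0. Control and Tbx20_OE points do not overlap for Glrx, Nfe2l2 and Prdx3, and the triangle of control 2 stands high for Mt1 and Mt2.

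The metallothioneins differed more between the 2 controls than between the group means. Mt1, on chromosome 8 from 94179089 to 94180327 of mm10, was at 659 and 1348 FPKM in control 1 and 2 against 599 and 704 FPKM in Tbx20_OE 1 and 2. Control 2 was high and the other 3 hearts lay together, and the negative difference (log2 fold change -0.54, standard error 0.41, limma adjusted p = 0.848) came to -0.02 without control 2. Mt2, on chromosome 8 from 94172618 to 94173567, was at 71.8 and 354 FPKM in control 1 and 2 against 93.4 and 214 FPKM in Tbx20_OE 1 and 2. Its order was control 1, Tbx20_OE 1, Tbx20_OE 2 and control 2 from low to high, a 4.94-fold range (log2 fold change -0.17, standard error 0.81), and the sign turned to 0.97 without control 2. The ratio of Mt1 to Mt2 was 9.18 in control 1, 3.80 in control 2, 6.41 in Tbx20_OE 1 and 3.28 in Tbx20_OE 2, so the proportion of the genes varied between hearts in both groups. The heart with the highest metallothionein level is the one with the highest atrial, red cell, platelet, mesothelium and fat marker sums. The part of those cells in the metallothionein values was not tested.

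The members that set control 2 apart also differed in base composition. Control 2 lay more than 0.5 on the log2 scale below the mean of the other hearts for 12 members: Cat, Glrx, Gsto1, Msra, Nfe2l2, Nqo1, Prdx1, Prdx3, Prdx6, Sod2, Txn1 and Txnrd1. Their transcripts had a median GC content of 47.0% and a range of 42.2% to 51.7%. It lay as far above for Gpx3, Mt1, Mt2 and Sod3, at a median of 54.2% and a range of 52.7% to 56.0%. Across the 39 members the deviation of control 2 correlated with GC content at a Pearson r of 0.46 and a Spearman rho of 0.47, and across 10029 tested genes with a GC value at 0.38 and 0.45. Atrial, red cell, platelet, mesothelium, fat and, by a smaller margin, ventricular marker sums were also highest in control 2. The part of those cells or of base composition in the values of these 16 members was not tested. These are correlations across genes within the same libraries, and genes are not independent replicates. After GC correction, 8 members were separated upward and 3 downward, against 12.6% and 12.1% of all genes. This correction subtracted the median deviation of each library within bins of GC content. It thus also centred the libraries, and the median log2 fold change of all genes came to 0.0068. Median centring alone left 7 members separated upward and 5 downward, so the change in these counts cannot be assigned to GC content.

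**Figure D4:**
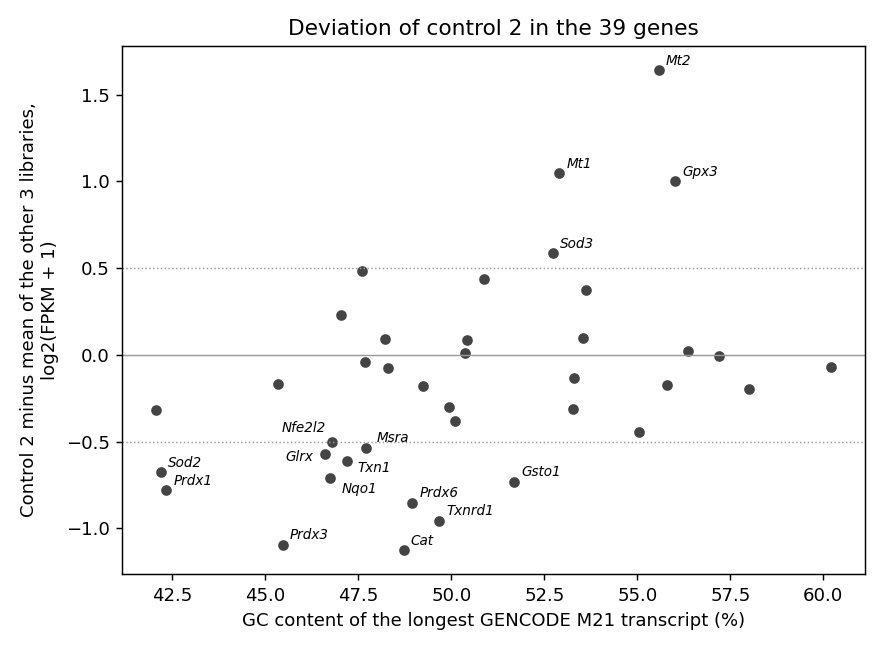
Deviation of control 2 from the mean of the other 3 hearts, in log2(FPKM + 1), against the GC content in percent of the longest annotated transcript, 1 point per member gene. Members beyond 0.5 in either direction are named. The 12 named genes below the line have GC contents of 42.2% to 51.7% and the 4 above it 52.7% to 56.0%.

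Other genes of the same pathways were taken from lists of 107 genes, of which 88 were tested. None passed the limma test, and Abcc1 and Akr1b3 had an unadjusted p under 0.05. In 18 of the 88 (20.5%) both Tbx20_OE hearts were above both controls and in 2 (2.27%) below, against 28.1% and 4.77% of all tested genes. The median log2 fold change was 0.10, against 0.15 over all tested genes. Among 19 further superoxide, peroxide and thioredoxin system genes, 4 (21.1%) were separated upward, against the same 28.1%: Txnrd3, Msrb1, Sep15 and Msrb2. Txnrd3, a thioredoxin and glutathione reductase, was at 5.32 and 3.79 FPKM in the controls against 6.40 and 7.69 FPKM in the Tbx20_OE hearts. Msrb1, a methionine sulfoxide reductase, was at 134 and 99.0 FPKM in the controls against 168 and 159 FPKM in the Tbx20_OE hearts, and its mitochondrial relative Msrb2 was at 53.5 and 52.8 FPKM in the controls against 59.9 and 54.7 FPKM in the Tbx20_OE hearts. Sep15, a selenoprotein of the endoplasmic reticulum, was at 59.0 and 43.0 FPKM in the controls against 68.4 and 64.0 FPKM in the Tbx20_OE hearts. Control 2 was the lowest heart for each of these 4 genes, as for 54.3% of all tested genes. A gene separated upward always has a control as its lowest heart.

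Among 21 further glutathione genes, 7 (33.3%) were separated upward and 1 (4.76%) downward, near the shares of all tested genes. Abcc1, a pump that exports glutathione and its conjugates, was at 3.24 and 2.28 FPKM in the controls against 4.37 and 5.02 FPKM in the Tbx20_OE hearts. Chac2, which breaks glutathione down, was at 5.96 and 3.06 FPKM in the controls against 7.35 and 6.94 FPKM in the Tbx20_OE hearts. Hagh, a glyoxalase, was at 43.3 and 38.7 FPKM in the controls against 59.4 and 53.9 FPKM in the Tbx20_OE hearts. Control 2 was again the lowest heart for all 3 of these genes, as for 54.3% of all tested genes. It was also lowest for Gstm7, Gsto2 and Glo1, which were separated upward too, while control 1 was lowest for Gstm4. Being separated upward already required a control as the lowest heart. Gstp2, the near copy of Gstp1, was the 1 gene downward, at 3.49 and 3.27 FPKM in the controls against 1.75 and 3.27 FPKM in the Tbx20_OE hearts, although control 2 and Tbx20_OE 2 were nearly equal.

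Among 26 genes of the Nrf2, NADPH, heme and iron list, 3 (11.5%) were separated upward and 1 (3.85%) downward, against 28.1% and 4.77% of all tested genes. Idh1, a cytosolic source of NADPH, was at 24.1 and 16.0 FPKM in the controls against 31.6 and 27.6 FPKM in the Tbx20_OE hearts. Nqo2, a quinone reductase, was at 7.30 and 5.39 FPKM in the controls against 9.12 and 8.77 FPKM in the Tbx20_OE hearts. Ephx1, an epoxide hydrolase, was at 23.7 and 22.3 FPKM in the controls against 28.5 and 24.4 FPKM in the Tbx20_OE hearts, and here both controls were close together. Akr1b3, aldose reductase, was at 15.7 and 61.1 FPKM in control 1 and 2 against 11.1 and 8.77 FPKM in Tbx20_OE 1 and 2, downward in both Tbx20_OE hearts and far above the rest in control 2 (log2 -1.57, standard error 0.61). Its log2 fold change was -0.63 without control 2.

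Among 14 metal and glucocorticoid response genes, chosen because both signals induce metallothioneins, 3 (21.4%) were separated upward, against 28.1% of all tested genes. Fkbp5, a glucocorticoid-induced chaperone, was at 11.1 and 16.0 FPKM in the controls against 16.7 and 20.8 FPKM in the Tbx20_OE hearts. Slc30a1, a zinc exporter induced by zinc, was at 4.17 and 3.37 FPKM in the controls against 4.51 and 5.91 FPKM in the Tbx20_OE hearts. Zbtb16, a transcription factor induced by glucocorticoids, was at 8.40 and 6.99 FPKM in the controls against 8.63 and 9.87 FPKM in the Tbx20_OE hearts. Of the same 14 genes, 3 (21.4%) were highest in control 2, as Mt1 and Mt2 were, and 8 (57.1%) were lowest there. Over all tested genes, 25.5% were highest and 54.3% lowest in control 2. The 3 that were highest there were Mt3, Tsc22d3 and Lcn2, named after their values were seen. Mt3, a further metallothionein, was at 1.39 and 9.21 FPKM in the controls against 2.89 and 3.21 FPKM in the Tbx20_OE hearts. Tsc22d3, which glucocorticoids induce, was at 78.2 and 110.5 FPKM in the controls against 71.7 and 80.2 FPKM in the Tbx20_OE hearts, and Lcn2, an iron carrier protein, was at 3.90 and 22.9 FPKM in the controls against 6.78 and 2.69 FPKM in the Tbx20_OE hearts.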

How the data were processed

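Per the labels' protocols, RNA was extracted from each heart with Trizol, and libraries were made for Illumina sequencing. The submitters' processing notes name mm10 with TopHat2 2.0.13 and Cufflinks 2.1.1. Strand setting and annotation release are not stated there. The authors deposited FPKM per gene for each library, and depth is unknown, so counting error cannot be given. A quantile-normalized FPKM table by the authors served as an alternative. The authors' comparison table was made with cuffdiff 2.1.1, per the file headers, and lists FPKM with p-values and q-values, and their selection flags were deposited as a score of 0 or 1. No column of another sample was used.

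Libraries were grouped by genotype, with 2 per group. Values were analysed as log2(FPKM + 1) for the 10513 genes with a mean of at least 1 FPKM, by limma 3.58.1 in R 4.3.3, moderated along a mean-variance trend, the group as the only term and Benjamini-Hochberg adjustment over all of them at 0.05. Fold changes are on this scale, which understates changes of low genes. Groups are called separated where both values of one lie beyond both values of the other. The labels do not say whether the hearts came from separate litters or batches. The members, lists and alternatives were chosen with earlier results of these data known, and the GC correction and a crossed block were added after seeing the data.

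Values per library were given for members separated by at least 1.2-fold, the metallothioneins, Txnip, Nfe2l2, Keap1, Nqo1, Hmox1 and the most abundant member of each role, and for up to 4 separated genes with the largest change of each further list. Other members are given in brief, and the list of oxidant sources, counted among the 88 further genes tested, is not reported here. Of the 4 genes with a failed estimate and 1 row not matched in the library files, none was used. The limma step was tested on simulated data. The longest GENCODE M21 transcript gave the GC content, and promoters came from RefSeq GRCm38.p6, whose start equalled that of the files for 20 of 32 members, from 250 bases before to 50 after the start, 1 per symbol. Coordinates are those of the files with 1 added to the start. Tables were joined in Python 3.11.15 with pandas 2.3.3 and scipy 1.17.1, and plots drawn with matplotlib 3.10.9.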

Additional observations from a re-analysis of the deposited data

How the results depend on the processing

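Of 367 values of the 23 genes with a fold change, over 16 alternatives, 356 kept their direction and side of the threshold. Of the 23 genes, 19 kept their direction in every alternative. Changing the filter or the moderation, adding a block or joining the library files by locus left the fold changes as they were. In those alternatives only the side of the threshold could change, so they do not test the direction. Without control 2 the log2 fold change ended at 0.062 for Sod1 (range over single libraries left out -0.46 to 0.062), 0.36 for Gpx3 (-0.88 to 0.36), -0.0046 for Txnrd1 (-0.0046 to 0.95) and 0.97 for Mt2 (-1.32 to 0.97). It turned positive as well, to 0.014 for Sod1 without Tbx20_OE 2 and to 0.42 for Mt2 without Tbx20_OE 1. Akr1b3 passed without control 1 at -2.52 (limma adjusted p = 0.00264), beside the 4 members named above. The number of genes passing among all tested was 2, and it became 1 with a pseudocount of 0.1, 0 with no filter on low values (limma, where no member passed either), 1 with the library files joined by locus and 6 to 1433 with 1 library left out. Members passing ranged from 0 to 4 and genes of the further lists from 0 to 13 with 1 library left out, in both cases highest without control 1. Members separated upward numbered 7 with median centring, 9 with quantile normalization, 10 with the authors' quantile-normalized values, 8 with GC correction and 19 to 25 with 1 library left out. The shares of all tested genes were 10.3%, 11.8%, 12.1% and 12.6% under these scalings and 40.9% to 59.8% with 1 library left out, where 3 hearts separate more easily than 4. Those separated downward numbered 5, 2, 2 and 3 under the same scalings and 3 to 9 with 1 library left out, against 12.1% to 14.1% and then 8.31% to 27.0% of all tested genes. The median over the members was 0.0089 with median centring and 0.12 to 0.22 with 1 library left out. With the replicate number as a block, 6 genes of all tested and 0 members passed. Same-numbered libraries deviated in opposite directions (r = -0.45 over 10513 genes), so the numbers are not shown to pair the hearts. With the pairing crossed, 30 genes of all tested and 0 members passed. Where a library is left out, the spread of its group is taken from the other group. A mean of at least 5 FPKM leaves out Gclc. The cause of these shifts was not tested, and 2 hearts per group limit what differences could be detected.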
